A study of Mus musculus with 4 samples.

Results

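Glycine, serine and folate metabolism enzymes were examined as a set of 7 genes, namely Gldc, Shmt1, Shmt2, Mthfd1, Mthfd2, Phgdh and Psat1. They were taken by gene symbol, and every probe set whose single symbol in the array platform's annotation was one of these names was kept. This gave 8 probe sets for 6 genes, of 12422 probe sets and 8251 genes in all, with a pair of probe sets each for Shmt1 and Mthfd2. Mthfd1, the cytosolic enzyme that interconverts folate-bound one-carbon units, had no such probe set and was not analysed here. The members were chosen by pathway after the intensities of Gldc on these same arrays had been seen to differ between the groups, and the question put to it was whether the pathway follows Gldc. Values of the 6 genes are therefore a description of this contrast, with no test.

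The samples were mouse cells on single-colour arrays, 2 titled Hemangioblast and 2 titled hCD4. All derived from 1 line of embryonic stem (ES) cells in which human CD4 marks expression of Scl, the blood and endothelial transcription factor encoded by Tal1; no drug treatment or gene deletion is named for either group. Per the labels, the line was kept on STO feeder cells with LIF and then differentiated in serum to embryoid bodies; cells bearing both Flk-1 (product of Kdr, a receptor for VEGF) and Scl were sorted from these, and blast colonies grown from replated embryoid body cells were picked and pooled. The labels do not settle which of these materials each title stands for. The sources name cultured hemangioblasts and cultured hCD4 ES cells, while the study text names the populations hCD4 and Blast. The array titles are therefore used throughout as names only, and levels of cell type markers are given below. Whether the 2 arrays of a title hold separate cultures is not said, so errors and p-values reflect the spread between the arrays at hand, which may be technical only.

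In background terms, the glycine cleavage system of mitochondria breaks glycine down and passes a one-carbon unit to tetrahydrofolate. Serine hydroxymethyltransferases pass another such unit from serine, giving glycine, and the folate enzymes then carry these units to purines, thymidylate and methionine. Mouse ES cells are known to feed this system from threonine through threonine dehydrogenase (Tdh) and glycine decarboxylase. Tdh was not analysed here.

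Gldc was far lower on the Hemangioblast arrays, and the other measured members differed less or overlapped. Gldc, which encodes the glycine decarboxylase that carries out the entry step of glycine cleavage, had scaled intensities of 123 and 142 on the Hemangioblast arrays, against 957 and 1042 on the hCD4 arrays. Arrays of a group lay close together and the groups were far from overlapping, with the lower hCD4 array 6.76 times the higher Hemangioblast array. The mean was 132 ± 13.3 on the Hemangioblast arrays, against 1000 ± 60.4 on the hCD4 arrays (SD, n = 2 each), which is 13.2% of the hCD4 mean. The log2 difference, Hemangioblast minus hCD4 on log2 of the scaled intensity plus 16, was -2.78 (SE 0.19, 95% interval -3.22 to -2.34). Gldc had the rank 7 from the lowest among the log2 differences of 8251 genes. It was represented by 1 probe set, so no other probe set checks it.

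Shmt1, which encodes the cytosolic serine hydroxymethyltransferase, was lower on the Hemangioblast arrays by a smaller amount, and its probe sets lay the same way. By the brighter of them, 98459_at, it was at 770 and 492 on the Hemangioblast arrays, against 962 and 1185 on the hCD4 arrays. The groups did not overlap, but the lower hCD4 array was only 1.25 times the higher Hemangioblast array, and the Hemangioblast arrays differed from each other by 0.63 on the log2 scale. By the dimmer, 104700_at, it was at 87.0 and 136 on the Hemangioblast arrays, against 209 and 307 on the hCD4 arrays. Here replicate 2 was above replicate 1 in each group and the groups again did not overlap. The log2 differences were -0.78 (SE 0.23, interval -1.30 to -0.25) by 98459_at and -1.11 (SE 0.31, interval -1.82 to -0.39) by 104700_at. Shmt1 by its brighter probe set had the rank 287 of 8251 from the lowest difference.

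Shmt2, the mitochondrial counterpart of Shmt1 and so the hydroxymethyltransferase of the compartment where Gldc works, was at 321 and 272 on the Hemangioblast arrays, against 320 and 382 on the hCD4 arrays. The higher Hemangioblast array and the lower hCD4 array were nearly level, so the groups overlapped. The log2 difference was -0.23 (SE 0.21, interval -0.71 to 0.25). Its only probe set, 162458_i_at, carries a suffix by which the maker marks a probe set with an incomplete number of probes.

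**Figure D1:**
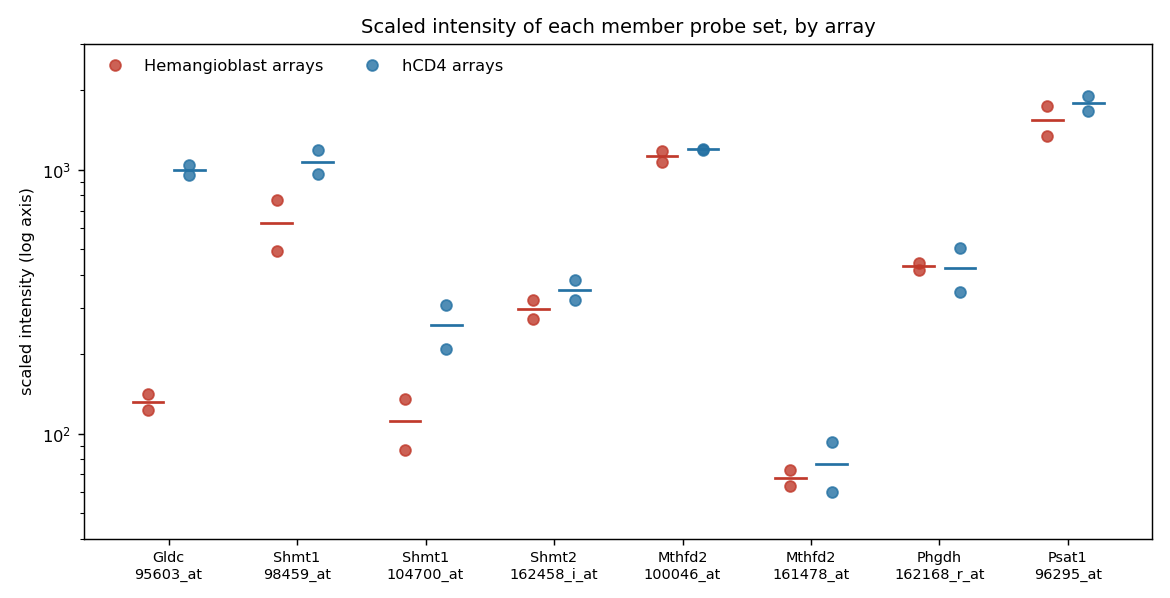
Scaled intensity (log axis) of the 8 probe sets of 6 genes, Hemangioblast arrays in red to the left and hCD4 arrays in blue to the right of each pair, 1 point an array, with a bar at the mean of 2 arrays. Gldc shows the widest gap between the colours, the probe sets of Shmt1 a smaller one, and the rest lie close or overlap; heights of different probe sets are not comparable.

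Mthfd2, the mitochondrial folate enzyme that is typical of embryonic and dividing cells, was at nearly the same level in the groups. By 100046_at it was at 1067 and 1183 on the Hemangioblast arrays, against 1193 and 1204 on the hCD4 arrays. These values did not overlap, yet the gap between the nearest arrays was a factor of 1.01 and the log2 difference was -0.09 (SE 0.15, interval -0.43 to 0.24). By the dim 161478_at it was at 63.2 and 72.5 on the Hemangioblast arrays, against 60.2 and 92.7 on the hCD4 arrays, which overlapped (log2 difference -0.12, SE 0.34).

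The serine synthesis enzymes of the set overlapped between the groups. Phgdh, which takes 3-phosphoglycerate from glycolysis into serine synthesis, was at 418 and 444 on the Hemangioblast arrays, against 344 and 506 on the hCD4 arrays. The Hemangioblast arrays lay between the hCD4 arrays, and the log2 difference was 0.04 (SE 0.22, interval -0.46 to 0.55). Psat1, the aminotransferase of the next step, was at 1348 and 1739 on the Hemangioblast arrays, against 1674 and 1901 on the hCD4 arrays. The groups overlapped, and the log2 difference was -0.22 (SE 0.17, interval -0.61 to 0.17). The Phgdh probe set, 162168_r_at, carries the maker's mark for relaxed rules of probe choice.

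Counted as probe sets, 7 of 8 were lower and 1 higher on the Hemangioblast arrays, and the median log2 difference was -0.22, against 0.04 over all 12422 probe sets. Without Gldc the median of the other 7 was -0.22. The groups did not overlap, with the Hemangioblast arrays lower, for 4 of 8 member probe sets (Gldc, both of Shmt1 and 100046_at of Mthfd2), where the share over all probe sets was 19.7%. An adjusted p under 0.05 in limma's test over all 12422 probe sets was reached by 1 of 8, Gldc, where 4.48% of all probe sets reached it. The count was 3 with dim probe sets left out (Gldc and both probe sets of Shmt1) and 2 without Hemangioblast replicate 1 (Gldc and 98459_at of Shmt1). These counts come from the contrast that chose the set, and nothing is read from them. In 12 other settings of the processing the log2 difference of Gldc ran from -2.91 to -2.44, and that of Shmt1 from -1.09 to -0.46 by 98459_at and from -1.39 to -0.83 by 104700_at. The log2 differences of Shmt2, Psat1 and 100046_at of Mthfd2 kept their sign in the same 12 settings, between -0.40 and -0.02, while Phgdh ran from -0.22 to 0.31 and 161478_at of Mthfd2 from -0.38 to 0.14.

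**Figure D2:**
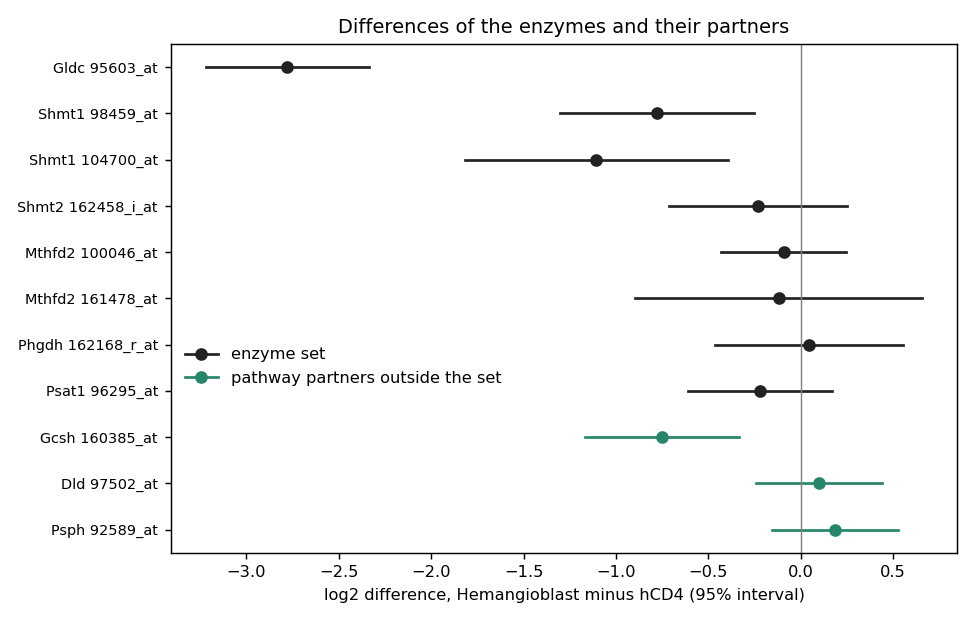
Log2 difference, Hemangioblast minus hCD4, with its 95% interval for the 8 probe sets of the set (black) and for Gcsh, Dld and Psph outside it (green). Gldc lies at -2.78, Shmt1 at -0.78 and -1.11, and Gcsh at -0.75. Shmt2, Mthfd2, Phgdh, Psat1, Dld and Psph lie between -0.23 and 0.19. Intervals are unadjusted and are not used as a test of the set.

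The upstream sequences of Gldc, Shmt1 and Shmt2 are shown because these are the member with the largest difference, the next largest, and the mitochondrial form of the same enzyme whose groups overlapped. Each is the 250 bases before the start site given by RefSeq (GRCm38.p6), all on the minus strand, at chr19:30175442-30175691 for Gldc, chr11:60811266-60811515 for Shmt1 and chr10:127522445-127522694 for Shmt2. Capitals mark CCAAT and GGGCGG, searched on both strands, with the 2 GGGCGG nearest the Shmt1 start sharing a base.
Gldc: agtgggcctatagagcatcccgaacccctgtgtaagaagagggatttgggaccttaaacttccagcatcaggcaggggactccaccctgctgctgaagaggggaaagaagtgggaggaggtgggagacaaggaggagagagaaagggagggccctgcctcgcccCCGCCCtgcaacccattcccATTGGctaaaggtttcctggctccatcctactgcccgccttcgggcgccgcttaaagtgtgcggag
Shmt1: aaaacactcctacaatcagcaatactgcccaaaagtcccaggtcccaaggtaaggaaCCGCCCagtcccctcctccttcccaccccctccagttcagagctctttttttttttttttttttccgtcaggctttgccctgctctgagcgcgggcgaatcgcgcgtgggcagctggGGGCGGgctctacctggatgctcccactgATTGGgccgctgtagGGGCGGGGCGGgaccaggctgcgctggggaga
Shmt2: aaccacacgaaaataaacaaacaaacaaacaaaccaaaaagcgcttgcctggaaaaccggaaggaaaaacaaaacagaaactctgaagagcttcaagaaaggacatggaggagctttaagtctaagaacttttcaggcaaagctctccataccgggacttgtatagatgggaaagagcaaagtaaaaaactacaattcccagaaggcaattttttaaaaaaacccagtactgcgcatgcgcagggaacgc
Gldc held 1 CCAAT, beginning 66 bases before the start site, and 1 GGGCGG, at 86 bases. Shmt1 held 1 CCAAT, at 47 bases, and 4 GGGCGG, and Shmt2 held neither. CCAAT stands in 33.8% and GGGCGG in 32.7% of all 32851 windows of this length, so a match to either is common. Of the other members, Mthfd2 held 3 CCAAT and no GGGCGG, Phgdh held 2 CCAAT and no GGGCGG, Mthfd1 held 1 of each, and Psat1 held 2 CCAAT before one of its 2 start sites and 1 GGGCGG before the other. The windows of the 7 genes held no CACGTG, the letters bound by Myc with Max, which 6.02% of all windows hold, and no TGATGNAA, an element bound by Atf4 with C/EBP factors, which 3.45% hold. These matches describe letters in the windows and not binding.

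Partners of Gldc and other genes of the same pathways, which the rule did not name, were read from limma's test (Benjamini-Hochberg over 12422 probe sets), with the brightest probe set standing for a gene. Of 110 such genes, 68 were measured. The test called 3 of 68 higher on the Hemangioblast arrays and 0 lower, against 3.43% and 1.95% of all 8251 genes. At an unadjusted p under 0.05, 8 were higher and 14 lower, against 9.64% and 8.67% of all genes. The groups did not overlap for 18 higher and 21 lower of the 68, against 24.5% and 22% of all genes. The median log2 difference of the 68 was -0.05, against 0.02 over all genes. The count of lower genes depended on the processing: with probe sets of a mean scaled intensity under 50 left out, limma called 3 higher and 6 lower of the 60 tested (Gcsh, Slc19a1, Slc38a2, Srm, Ahcy and Ppat lower). In that setting it called 522 higher and 361 lower of all 10410 probe sets kept.

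Neither measured partner of Gldc in glycine cleavage passed the test. Gcsh, the H protein that carries the aminomethyl group from Gldc, was at 881 and 653 on the Hemangioblast arrays, against 1243 and 1333 on the hCD4 arrays. The groups did not overlap, and the log2 difference of -0.75 (SE 0.18) had an adjusted p of 0.0601 in limma's test, which misses the threshold. Without Hemangioblast replicate 1 it was -0.96 with an adjusted p of 0.0171, and over the 12 other settings the adjusted p ran from 0.0171 to 0.335. Dld, the dihydrolipoamide dehydrogenase that glycine cleavage shares with pyruvate dehydrogenase, was at 1305 and 1505 on the Hemangioblast arrays, against 1297 and 1317 on the hCD4 arrays (log2 difference 0.10, SE 0.15, limma's adjusted p = 0.837). Amt, which encodes the T protein, was not analysed here.

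The last enzyme of serine synthesis, Psph, was at 1625 and 1832 on the Hemangioblast arrays, against 1435 and 1596 on the hCD4 arrays (log2 difference 0.19, SE 0.15, interval -0.15 to 0.53, limma's adjusted p = 0.640). With Phgdh and Psat1 this gives all 3 steps of serine synthesis from 3-phosphoglycerate, with log2 differences between -0.22 and 0.19. Among 14 measured genes of other serine and glycine metabolism, Psph included, 1 rose and 0 fell, against 3.43% and 1.95% of all genes, with a median log2 difference of 0.22. An unadjusted p under 0.05 in limma's test was reached by 3 higher genes (Alas1, Alas2 and Sardh) and 0 lower, against 9.64% and 8.67% of all genes. The groups did not overlap for 6 higher genes, Psph, Alas1 and Alas2 among them, and 1 lower gene of the 14, against 24.5% and 22% of all genes. The gene that rose was Alas2, which joins glycine to succinyl-CoA to begin heme synthesis in red cells, at 474 and 586 on the Hemangioblast arrays, against 112 and 138 on the hCD4 arrays (log2 difference 1.95, SE 0.23, limma's adjusted p = 0.00243). Alas2 also counts among the red cell markers, whose summed scaled intensity was 37149 and 39584 on the Hemangioblast arrays, against 12772 and 13490 on the hCD4 arrays; their part in its rise was not tested. Alas1, the form of other tissues, was at 506 and 595 on the Hemangioblast arrays, against 315 and 382 on the hCD4 arrays, with an adjusted p of 0.128 in limma's test. Of these enzymes that consume glycine, Gldc was lower and Alas2 higher on the Hemangioblast arrays.

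Among 6 measured folate genes outside the set, 0 rose and 0 fell in limma's test, against 3.43% and 1.95% of all genes, with a median log2 difference of -0.09. The groups did not overlap for 1 higher and 2 lower of the 6, against 24.5% and 22% of all genes. At an unadjusted p under 0.05 there were 2 lower and 0 higher, against 8.67% and 9.64%. Those 2 were Slc19a1, the reduced folate carrier, and Fpgs, which adds glutamates to folate to hold it in the cell. Slc19a1 was at 274 and 217 on the Hemangioblast arrays, against 386 and 503 on the hCD4 arrays (log2 difference -0.81, SE 0.22, limma's adjusted p = 0.0955), but its other probe set showed -0.03. Fpgs was at 403 and 431 on the Hemangioblast arrays, against 580 and 548 on the hCD4 arrays (-0.42, SE 0.17, adjusted p = 0.270 in limma's test). Ggh, the hydrolase that removes those glutamates, was at 153 and 148 on the Hemangioblast arrays, against 96.8 and 86.5 on the hCD4 arrays (0.63, SE 0.28, limma's adjusted p = 0.312), without overlap between the groups.

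No gene of the purine synthesis list or of the methionine cycle and polyamine list passed the test. Over all genes, limma's test called 3.43% higher and 1.95% lower, and 9.64% and 8.67% had an unadjusted p under 0.05. The groups did not overlap for 24.5% higher and 22% lower. Of 8 measured purine synthesis genes 0 rose and 0 fell in limma's test, while 5 were lower and 1 higher at an unadjusted p under 0.05, and the median log2 difference was -0.40. The groups did not overlap for 2 higher and 5 lower of the 8. Gart, a purine enzyme that uses formyl folate, was at 925 and 845 on the Hemangioblast arrays, against 1272 and 1239 on the hCD4 arrays (log2 difference -0.50, SE 0.15, limma's adjusted p = 0.118). Ppat, the enzyme that commits to purine synthesis, was at 36.6 and 58.3 on the Hemangioblast arrays, against 107 and 158 on the hCD4 arrays (-1.23, SE 0.35, limma's adjusted p = 0.105), while its dimmer probe set showed -0.51 with groups that overlapped. Adssl1 of the same list went the other way, at 163 and 161 on the Hemangioblast arrays, against 98.3 and 81.6 on the hCD4 arrays (0.75, SE 0.28, limma's adjusted p = 0.219). Adss was lower, at 754 and 948 on the Hemangioblast arrays, against 1189 and 1464 on the hCD4 arrays (-0.63, SE 0.18, limma's adjusted p = 0.105). Its other probe set showed -0.61. Of 10 measured methionine cycle and polyamine genes 0 rose and 0 fell, with 3 lower and 1 higher at an unadjusted p under 0.05 and a median of -0.18. The groups did not overlap for 1 higher and 3 lower of the 10. Ahcy, which clears S-adenosylhomocysteine after methylation, was at 2509 and 1795 on the Hemangioblast arrays, against 3339 and 3264 on the hCD4 arrays (-0.63, SE 0.18, limma's adjusted p = 0.102), and its other probe sets showed -0.67 and -0.70. The 3 probe sets of Ahcy thus gave like differences, each without overlap between the groups. They were read on the same arrays, so they are not independent measurements. Srm, the spermidine synthase, was at 1995 and 1961 on the Hemangioblast arrays, against 2837 and 3637 on the hCD4 arrays and lay just outside the threshold (-0.70, SE 0.16, limma's adjusted p = 0.0515). Mat2b of the same list was higher, at 708 and 658 on the Hemangioblast arrays, against 524 and 434 on the hCD4 arrays (0.50, SE 0.18, limma's adjusted p = 0.189). Its other probe set showed 0.39.

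Carriers that bring serine, glycine and other neutral amino acids into the cell were lower without overlap for 6 of 7 measured genes, where 22% of all genes were. In limma's test 0 rose and 0 fell, and at an unadjusted p under 0.05 there were 3 lower, where 8.67% of all genes were, and 0 higher. Their median log2 difference was -0.40, and they ranged from -0.71 to 0.04. Slc38a2, a sodium-coupled neutral amino acid carrier, was at 415 and 469 on the Hemangioblast arrays, against 743 and 721 on the hCD4 arrays (-0.71, SE 0.17, limma's adjusted p = 0.0560), while its 3 dimmer probe sets showed 0.24 to 0.39. Slc6a9, the glycine carrier GlyT1, was the member that overlapped, at 323 and 448 on the Hemangioblast arrays, against 322 and 423 on the hCD4 arrays (0.04, SE 0.23).

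**Figure D3:**
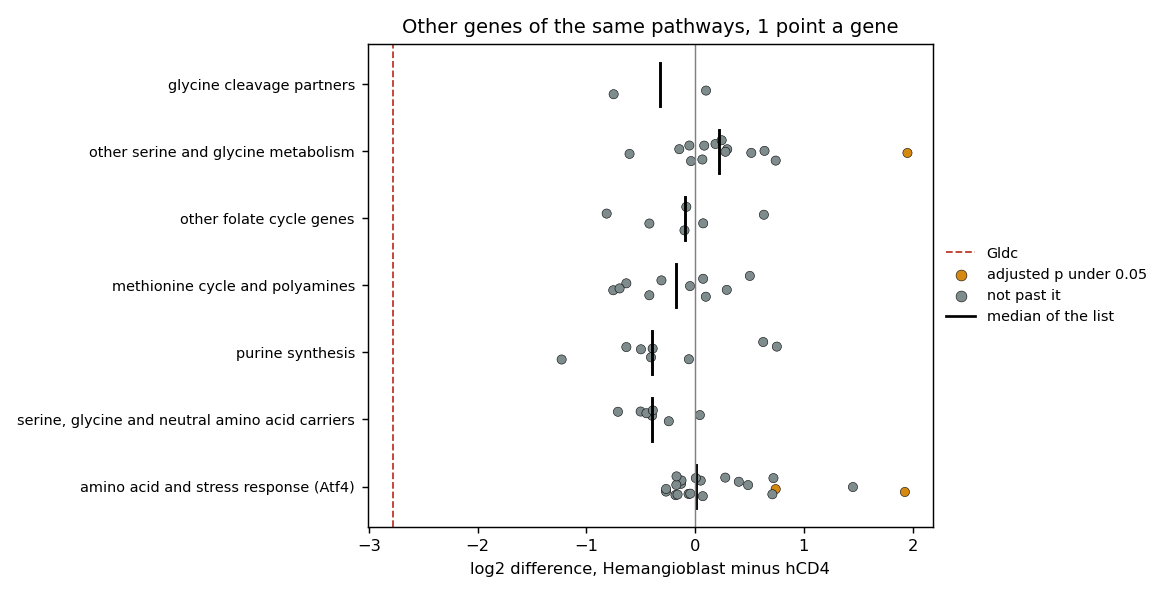
Log2 difference, Hemangioblast minus hCD4, of the 68 measured genes in 7 pathway lists outside the set, 1 point a gene, orange where the adjusted p is under 0.05, with a bar at each list's median and a dashed line at Gldc (-2.78). No gene lies near Gldc, the lowest being Ppat at -1.23, and the orange points are Alas2, Cebpb and Atf3, all higher.

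Atf4, the transcription factor of the amino acid response that drives Phgdh, Psat1, Shmt2 and Mthfd2 in starved cells, was at 1749 and 1503 on the Hemangioblast arrays, against 1596 and 1493 on the hCD4 arrays (log2 difference 0.07, SE 0.15, limma's adjusted p = 0.896). Of 21 measured genes of this response 2 rose and 0 fell, against 3.43% and 1.95% of all genes, with a median log2 difference of 0.01. The groups did not overlap for 8 higher and 3 lower of the 21, against 24.5% and 22% of all genes. At an unadjusted p under 0.05 in limma's test, 3 were higher and 0 lower, against 9.64% and 8.67%. The arrays measure RNA, so the level of Atf4 protein is not known here. Cebpb, a C/EBP factor also used in myeloid cells, was at 540 and 506 on the Hemangioblast arrays, against 163 and 96.0 on the hCD4 arrays (1.93, SE 0.27, limma's adjusted p = 0.00585). The summed scaled intensity of 8 myeloid cell markers was 6005 and 6671 on the Hemangioblast arrays, against 583 and 572 on the hCD4 arrays, and their part in the rise of Cebpb was not tested. Atf3, a stress-induced factor, was at 938 and 979 on the Hemangioblast arrays, against 576 and 558 on the hCD4 arrays (0.74, SE 0.15, limma's adjusted p = 0.0352). The Atf3 call passed in 5 of 12 other settings and in none that left out an array, where its adjusted p was 0.0622 to 0.227, and its other probe sets did not pass. Asns, a much used target of Atf4, was at 1372 and 1516 on the Hemangioblast arrays, against 1632 and 1643 on the hCD4 arrays (-0.18, SE 0.14, limma's adjusted p = 0.636), while its dimmer probe set showed 0.21. Ddit3 of the same list was at 41.0 and 22.0 on the Hemangioblast arrays, against 0.936 and 1.09 on the hCD4 arrays (1.45, SE 0.37, limma's adjusted p = 0.0709). Those hCD4 levels are the deposited value 1 after scaling.

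Genes were also ranked by how close their profile over the 4 arrays was to that of Gldc, as a description. Closeness was the root mean square difference of log2 values, each gene centred on its own mean, over 4 arrays and 8250 other genes. The 6 closest were Ablim1 (0.18), Eomes (0.24), Lgr5 (0.28), Fgf3 (0.34), Etv2 (0.34) and Efnb2 (0.35), of which Eomes encodes a primitive streak transcription factor and Etv2 a factor of early blood and endothelial mesoderm. Among the other members, Shmt1 had the rank 304 by the same measure (1.04), Psat1 1808 (1.28), Shmt2 1834 (1.28), Mthfd2 2763 (1.34) and Phgdh 4201 (1.42). With 4 arrays in 2 groups, this measure mostly reflects the size of the group difference. Only genes with a difference about as large as that of Gldc could rank close, so the ranks cannot decide whether the pathway follows Gldc.

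**Figure D4:**
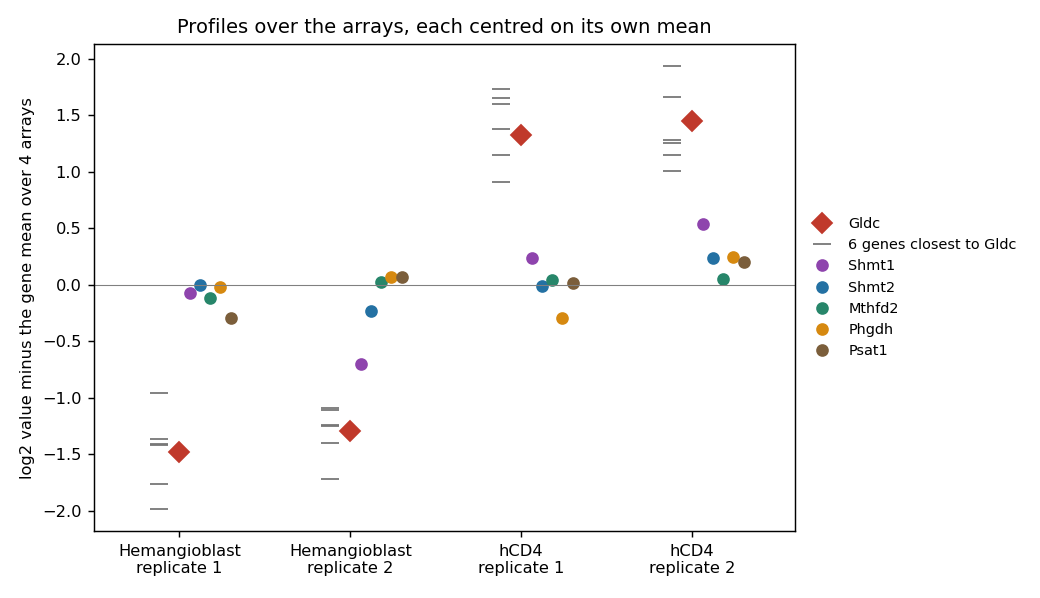
Log2 value minus the gene's own mean over the 4 arrays for Gldc (red diamonds), the other 5 measured members (coloured points) and the 6 genes closest to Gldc (grey dashes), by array. Gldc and its closest genes split widely between the groups, Shmt1 splits less, and Shmt2, Mthfd2, Phgdh and Psat1 stay near 0.

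Other features of the samples differed between the groups together with Gldc and Shmt1. In bulk RNA, fewer cells of a type and less RNA per cell cannot be told apart. For the counts below, limma's test called 3.43% of all genes higher and 1.95% lower. An unadjusted p under 0.05 was reached by 9.64% higher and 8.67% lower. Of 8 pluripotent cell markers 2 fell and 0 rose, with a summed scaled intensity of 1212 and 1231 on the Hemangioblast arrays, against 4658 and 2305 on the hCD4 arrays. The hCD4 arrays were unlike each other here, with Pou5f1 at 1526 and 585 by its brighter probe set. Its dimmer probe set went the other way, at 76.0 and 34.1 on the Hemangioblast arrays, against 21.9 and 16.9 on the hCD4 arrays. Of 7 hemangioblast stage markers 3 fell and 0 rose, with a summed scaled intensity of 3163 and 3655 on the Hemangioblast arrays, against 5966 and 7313 on the hCD4 arrays. All 7 had a log2 difference below 0. Kdr was at 648 and 570 on the Hemangioblast arrays, against 1625 and 2003 on the hCD4 arrays. The title Hemangioblast is thus a name here and not a reading of the markers. Of 9 Myc family genes 2 fell and 0 rose: Myc was at 185 and 146 on the Hemangioblast arrays, against 398 and 388 on the hCD4 arrays (log2 difference -1.18, SE 0.22, limma's adjusted p = 0.0236), and Mycn at 317 and 130 on the Hemangioblast arrays, against 817 and 689 on the hCD4 arrays (-1.80, SE 0.35, limma's adjusted p = 0.0266). Each missed the threshold without either hCD4 array, without scaling between arrays and without an intensity trend, Myc also without Hemangioblast replicate 2 and Mycn also with quantile normalization (limma's adjusted p up to 0.146 for Myc and 0.162 for Mycn), and a dimmer probe set of Mycn overlapped between the groups. Of 18 dividing cell genes 0 rose and 0 fell in limma's test, with 7 lower and 1 higher at an unadjusted p under 0.05 and a median of -0.27. The groups did not overlap for 12 lower and 1 higher of the 18, against 22% and 24.5% of all genes. Of 8 myeloid markers 7 rose and of 7 red cell markers 6 rose, with 0 lower in either list. Endothelial and fibroblast markers had 1 gene each that rose and 0 that fell, of 5 and 8 measured, and endoderm markers 0 of 6 either way. At an unadjusted p under 0.05, endothelial markers had 1 lower and 2 higher, with a median log2 difference of -0.11. Fibroblast markers had 0 lower and 2 higher, and endoderm markers 1 lower and 0 higher. The pluripotent count was 0 without an intensity trend, 1 without scaling between arrays or without hCD4 replicate 1, and 4 without hCD4 replicate 2 or with dim probe sets left out. The endothelial call was lost without hCD4 replicate 1, the fibroblast call without Hemangioblast replicate 2 or either hCD4 array, and both without an intensity trend. The part of cell makeup in the Gldc difference was not tested.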

How the data were processed

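Biotin-labelled RNA of 4 mouse cell samples was hybridised to 1-colour arrays. It was extracted with TRIzol without amplification per the labels' protocols. Values deposited by the authors are linear intensities, 1 for each probe set on each array. How they were computed, background-corrected or scaled is not given in the sources used here, and 1.16 to 1.28% of values on each array were exactly 1. Median intensities were 193 and 197 (Hemangioblast), against 197 and 165 (hCD4). Precision is limited by the number of arrays.

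Of 12488 probe sets, 66 controls were left out. Arrays were scaled to the average trimmed mean (2% trimmed at each end), and a constant of 16 was added before log2, so differences of dim probe sets are understated. limma 3.58.1 in R 4.3.3 (lmFit, eBayes with intensity trend; 2 residual and 6.18 prior degrees of freedom) compared Hemangioblast minus hCD4 with no block. The test is two-sided and adjusted by Benjamini-Hochberg over 12422 probe sets, and the threshold was 0.05. An exact permutation of 2 against 2 arrays cannot give a p below 0.333. The fit was tested on simulated data. Intervals use the fit's moderated error.

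Genes were named from the platform annotation (10833 probe sets with 1 symbol, 396 with several, 1193 with none); probe sets with several named no gene. A gene is represented by its brightest probe set unless said otherwise, and 7 list genes were found under an older symbol. Members and lists were chosen with earlier results of these data known. Named genes were the members, 6 or fewer called genes a list, Gcsh, Dld, Psph and Atf4, and the 6 genes closest to Gldc. Ppat, Gart, Adss, Adssl1, Ahcy, Srm, Mat2b, Slc38a2, Slc6a9, Slc19a1, Fpgs, Ggh, Alas1, Sardh, Asns and Ddit3 were chosen after their values were seen. Figures were drawn with matplotlib 3.10.9.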

Additional observations from a re-analysis of the deposited data

How the results depend on the processing

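Of all probe sets, 556 passed the threshold (362 higher, 194 lower); 272 passed without scaling between arrays (222 higher, 50 lower), 220 without an intensity trend, 883 with dim probe sets left out, and 219 to 517 with 1 array left out. The neighbour genes past the threshold numbered 3, all higher; they numbered 7 with an added constant of 1 (4 higher, 3 lower), 9 with dim probe sets left out (3 higher, 6 lower) and 2 to 4 with 1 array left out. Over all probe sets, 660 of 12422 passed with an added constant of 1 (411 higher, 249 lower). With dim probe sets left out, 522 higher and 361 lower of 10410 passed. With the replicate number as a block the neighbour count was 7 (3 higher, 4 lower), the count over all probe sets 710 (432 higher, 278 lower) and that of member probe sets 2 (Gldc and 104700_at of Shmt1), from which nothing is read. The labels do not say what a replicate number marks, and the deviations of same-numbered arrays correlated at -0.008 over probe sets, so the block is given here alone. The median difference over the member probe sets was -0.22 and ran from -0.36 to -0.12 with 1 array left out. The log2 difference of Atf4 was -0.015 with median scaling and -0.038 to 0.18 with 1 array left out, and that of Dld -0.0018 to 0.20, never past the threshold. For these changes, the cause was not tested.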
